A study of Homo sapiens with 18 samples.

Results

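The squalene to cholesterol enzymes are 9 genes, FDFT1, SQLE, LSS, CYP51A1, MSMO1, NSDHL, HSD17B7, EBP and DHCR7. They were chosen by name for their place in the pathway, with earlier results of these data known. All 9 have a row among the 23713 rows of the table, and all 9 reached 1 FPKM in at least 1 group, as 11051 genes did. The RNA came from MOLM-13, an established human acute monocytic leukaemia line, so every group shares that single line. Cells received dTRIM24, IACS-9571 or DMSO, the solvent, for 4 h or 24 h, which makes 6 groups of 3 samples each. Where the labels disagree on the time (the treatment protocol names 24 h throughout), the titles and time points were followed. The sources used here give no doses. IACS-9571 is a ligand of the bromodomains of TRIM24 and BRPF1, and dTRIM24 couples such a ligand to one for the VHL ubiquitin ligase, which marks TRIM24 protein for degradation.

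Cells build cholesterol from farnesyl diphosphate in a chain of membrane-bound steps in the endoplasmic reticulum. FDFT1 makes squalene, SQLE oxidises it, and LSS folds the epoxide into lanosterol, the first sterol. The later enzymes strip methyl groups off the ring, shift its double bonds and reduce them. When sterols in that membrane run low, SREBP transcription factors are released, cut and sent to the nucleus, where they raise the genes of this chain together with those of the mevalonate pathway and of lipoprotein uptake. Blood and leukaemia cells make cholesterol by this route as well as taking it up.

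The table holds 1 mean FPKM (by definition read fragments scaled for transcript length and library size) for each gene and group. The columns do not share a total, which ran from 771830 FPKM (IACS-9571 at 24 h) to 1058351 FPKM (DMSO at 4 h). The median of the spike-ins described below lay between 29.7 and 31.7 FPKM in every group. Why the totals differ was not tested. With means alone there is no spread between replicates, nothing could be tested and depth is not known. Differences are of log2(FPKM + 1) between group means, and "past 2-fold" means at least 1 on that scale. The log2 differences of 25 ERCC spike-ins, control RNAs mixed into the samples, varied with an SD of 0.11 at the least and 0.22 at the most over the 9 comparisons, which describes single RNAs and not replicates. Against DMSO the highest single spike-in stood at 0.60 (dTRIM24, 4 h), 0.19 (IACS-9571, 4 h), 0.46 (dTRIM24, 24 h) and 0.39 (IACS-9571, 24 h). All 10 markers of a monocytic or granulocytic leukaemia reached 1 FPKM, with a sum between 1239 and 1934 FPKM over the groups. No T cell, erythroid, epithelial or fibroblast marker of the lists did, and of 4 B cell markers 1 did, PAX5, at up to 5.79 FPKM, with CD79A and MS4A1 among those below 1 FPKM. In these bulk samples fewer expressing cells and less RNA per cell cannot be told apart.

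After 4 h all 9 enzymes stood above DMSO with either compound. Their summed level was 561 FPKM in dTRIM24 cells and 680 FPKM in IACS-9571 cells, against 291 FPKM in DMSO cells. These sums are 1.93 and 2.34 times the DMSO sum. With dTRIM24 4 of the 9 were past 2-fold higher than DMSO, where 0.67% of all genes were, and their median log2 difference was 0.81 against -0.01 for all genes. With IACS-9571 6 of the 9 were past 2-fold higher, where 0.253% of all genes were, and the median was 1.10 against 0.00 for all genes. Both compounds were set against the same DMSO means, so the 2 sets of differences are not independent. Every member lay above the band that holds the central 95% of all genes, whose upper end was at 0.28 with dTRIM24 and 0.27 with IACS-9571. With dTRIM24 the highest spike-in, at 0.60, stood above LSS (0.58), NSDHL (0.43) and EBP (0.36). With IACS-9571 the highest spike-in stood at 0.19, below all 9. For both compounds all 9 also remained above DMSO at 4 h under quantile normalization and removal of the trend with transcript GC content. Median centring and spike-in rescaling left all 9 above as well, but shifted the 4 h values by too little to change a sign. The other alternative settings could not change a sign either. With values rescaled to the spike-ins 3 members were past 2-fold with dTRIM24 and 5 with IACS-9571, as 73 and 26 of all 11051 genes were.

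**Figure D1:**
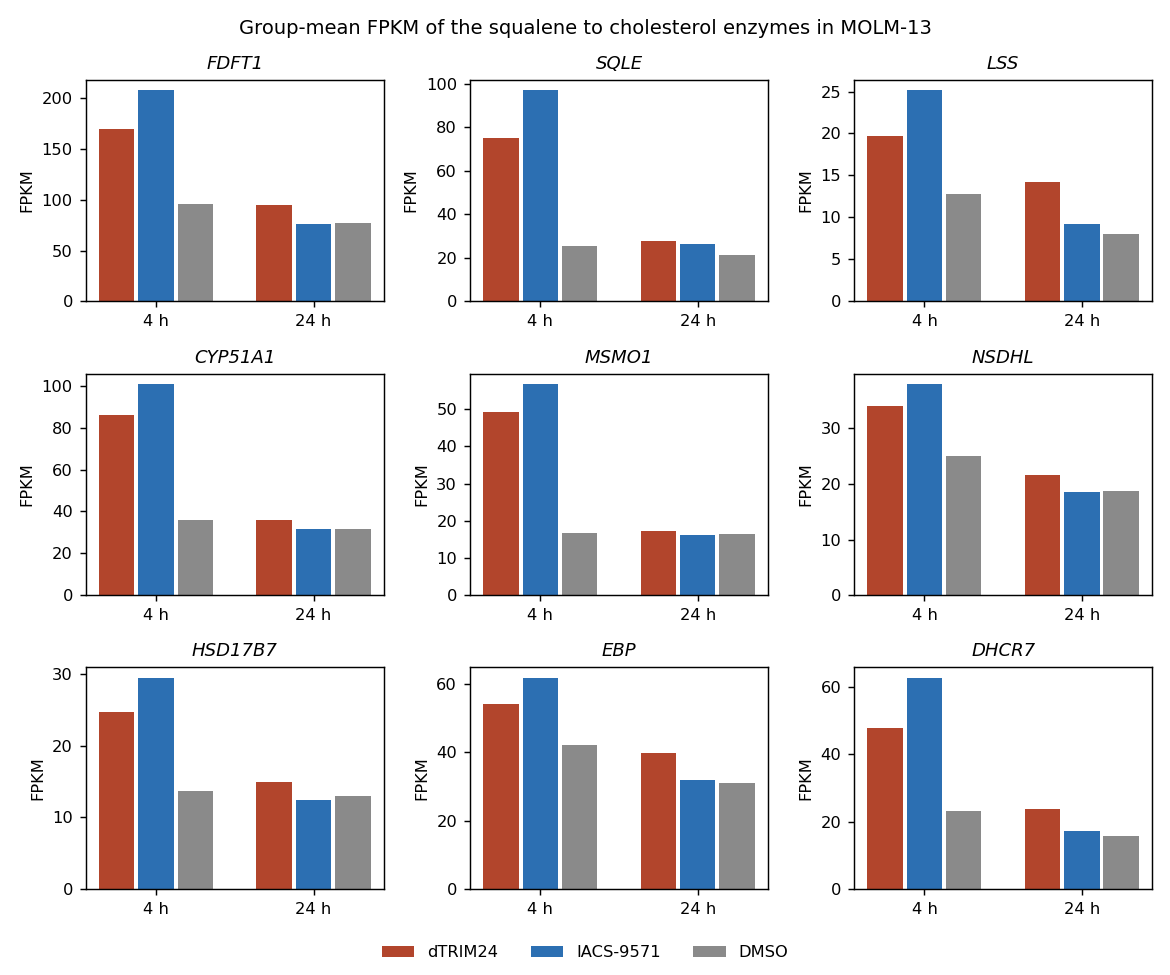
Bars give the group-mean FPKM of each enzyme at 4 h and at 24 h in dTRIM24, IACS-9571 and DMSO cells, 1 mean per group and hence no error bars; each panel has its own axis from 0. At 4 h the IACS-9571 bar is the tallest in every panel, and at 24 h the bars of the 3 groups lie closer together.

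Squalene formation opens the chain. FDFT1, the squalene synthase, had 170 FPKM in dTRIM24 cells and 208 FPKM in IACS-9571 cells at 4 h, against 96.3 FPKM in DMSO cells. At 24 h it had 94.5 FPKM in dTRIM24 cells and 76.2 FPKM in IACS-9571 cells, against 76.7 FPKM in DMSO cells. It was the highest of the 9 in all 6 groups, above 90.6% to 95.9% of the genes kept. SQLE, the squalene epoxidase and a rate-limiting step of the chain, had 75.1 FPKM in dTRIM24 cells and 97.0 FPKM in IACS-9571 cells at 4 h, against 25.2 FPKM in DMSO cells. Those are ratios of 2.98 and 3.85 to DMSO, the highest of the 9 with both compounds. SQLE ranked 61 of 11051 genes by its difference from DMSO with dTRIM24 (1.54) and 9 of 11051 with IACS-9571 (1.90). At 24 h its means were 27.7 FPKM in dTRIM24 cells, 26.2 FPKM in IACS-9571 cells and 21.3 FPKM in DMSO cells. LSS, the lanosterol synthase, was the lowest of the 9 in all 6 groups, with 19.7 FPKM in dTRIM24 cells and 25.1 FPKM in IACS-9571 cells at 4 h, against 12.8 FPKM in DMSO cells. Its ratios were 1.54 and 1.97, so LSS stayed within 2-fold while SQLE, the step before it, did not.

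Demethylation of the ring follows. CYP51A1, the lanosterol demethylase and a cytochrome P450, had 86.2 FPKM in dTRIM24 cells and 101 FPKM in IACS-9571 cells at 4 h, against 35.9 FPKM in DMSO cells. MSMO1, the methyl sterol monooxygenase that starts the removal of the other methyl groups, had 49.3 FPKM in dTRIM24 cells and 56.7 FPKM in IACS-9571 cells, against 16.7 FPKM in DMSO cells. Both were past 2-fold with each compound, CYP51A1 by 1.24 and 1.47 and MSMO1 by 1.504 and 1.70 on the log2 scale. NSDHL and HSD17B7 act on the product of MSMO1 and stood apart from it in size. NSDHL, the dehydrogenase that takes off the oxidised methyl group as carbon dioxide, had 34.0 FPKM in dTRIM24 cells and 38.0 FPKM in IACS-9571 cells, against 25.02 FPKM in DMSO cells. HSD17B7, the reductase that closes each round, had 24.7 FPKM in dTRIM24 cells and 29.5 FPKM in IACS-9571 cells, against 13.6 FPKM in DMSO cells. NSDHL thus differed from DMSO by 0.43 and 0.58, within 2-fold with both compounds, and HSD17B7 by 0.81 and 1.06, past 2-fold with IACS-9571.

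HSD17B7 has a close pseudogene copy, HSD17B7P2, and its values are uncertain where reads could be split between the copies. HSD17B7P2 had 7.66 FPKM in dTRIM24 cells and 9.81 FPKM in IACS-9571 cells at 4 h, against 4.50 FPKM in DMSO cells. The ratio of pseudogene to gene was between 0.300 and 0.348 in the 6 groups, so both rows kept nearly the same proportion. Strand handling is not given in the sources used here, and reads of antisense transcripts that overlap LSS and CYP51A1 in the reference annotation cannot be told apart from theirs.

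At the end of the chain, EBP, the isomerase that moves a ring double bond, had 54.3 FPKM in dTRIM24 cells and 61.8 FPKM in IACS-9571 cells at 4 h, against 42.1 FPKM in DMSO cells. With differences of 0.36 and 0.54 it was the least different of the 9 with both compounds. DHCR7, the reductase that yields cholesterol itself, had 47.8 FPKM in dTRIM24 cells and 62.7 FPKM in IACS-9571 cells, against 23.2 FPKM in DMSO cells. It was past 2-fold with both, by 1.01 and 1.39, the first just past the bound. EBPL, a relative of EBP, had 115 FPKM in dTRIM24 cells and 111 FPKM in IACS-9571 cells, against 109.5 FPKM in DMSO cells at 4 h. The order of sizes with IACS-9571 was SQLE, MSMO1, CYP51A1, DHCR7, FDFT1, HSD17B7, LSS, NSDHL and EBP, and it did not run with the order of the steps. The order with dTRIM24 was the same but for HSD17B7 and FDFT1, which were both at 0.81; no spread is known with which to separate such neighbours.

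**Figure D2:**
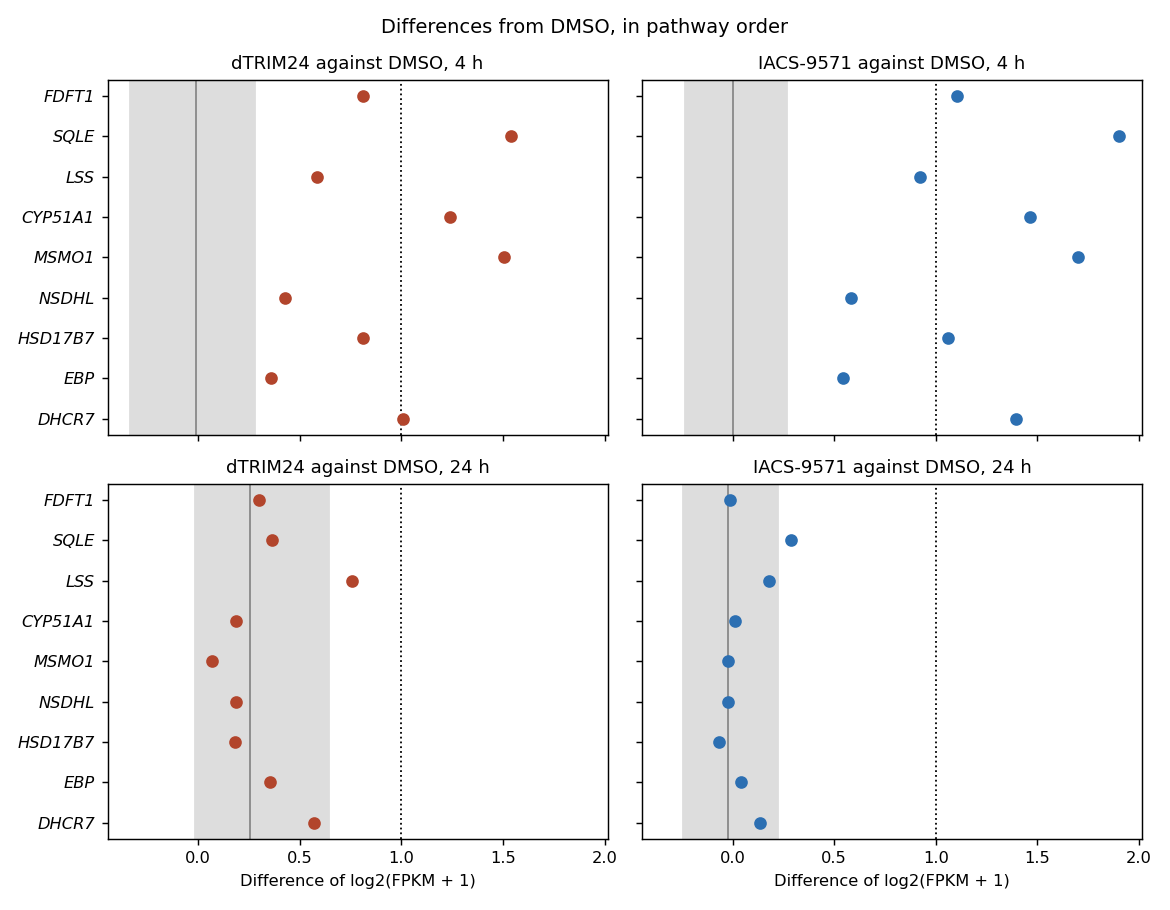
Points give the difference of log2(FPKM + 1) from DMSO for each enzyme in pathway order from top to bottom, dTRIM24 on the left and IACS-9571 on the right, 4 h above 24 h. The grey band holds the central 95% of 11051 genes, the grey line is their median and the dotted line is 2-fold; at 4 h all 9 points lie right of the band, and at 24 h only LSS with dTRIM24 and SQLE with IACS-9571 do.

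Since the 9 enzymes stood high together at 4 h, the promoters of 4 of them are shown, MSMO1 and CYP51A1 from the larger differences and NSDHL and EBP as the smallest. Each is the 300 bases that RefSeq (GRCh38.p14) places around the gene's start, from 250 before to 50 after, 5′ to 3′ on the gene's strand, at chr4:165327419-165327718 (plus strand) for MSMO1, chr7:92134428-92134727 (minus strand) for CYP51A1, chrX:152830813-152831112 (plus strand) for NSDHL and chrX:48521558-48521857 (plus strand) for EBP. The authors' values are on hg19, and no coordinate was carried between builds. Capitals mark CCAAT on either strand, the box bound by NF-Y, a factor known to act with SREBP, and the 1 match to a loose sterol element.
MSMO1: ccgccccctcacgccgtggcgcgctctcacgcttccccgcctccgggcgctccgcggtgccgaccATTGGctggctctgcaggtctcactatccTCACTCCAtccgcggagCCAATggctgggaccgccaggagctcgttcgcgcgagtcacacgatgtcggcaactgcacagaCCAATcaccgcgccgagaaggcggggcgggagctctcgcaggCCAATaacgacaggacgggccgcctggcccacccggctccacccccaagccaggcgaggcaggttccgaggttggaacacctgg
CYP51A1: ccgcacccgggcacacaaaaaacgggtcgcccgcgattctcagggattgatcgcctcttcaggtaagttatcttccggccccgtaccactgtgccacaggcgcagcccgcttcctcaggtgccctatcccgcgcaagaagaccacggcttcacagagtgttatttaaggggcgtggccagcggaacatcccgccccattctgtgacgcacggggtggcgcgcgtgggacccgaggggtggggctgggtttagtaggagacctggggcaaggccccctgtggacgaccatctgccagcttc
NSDHL: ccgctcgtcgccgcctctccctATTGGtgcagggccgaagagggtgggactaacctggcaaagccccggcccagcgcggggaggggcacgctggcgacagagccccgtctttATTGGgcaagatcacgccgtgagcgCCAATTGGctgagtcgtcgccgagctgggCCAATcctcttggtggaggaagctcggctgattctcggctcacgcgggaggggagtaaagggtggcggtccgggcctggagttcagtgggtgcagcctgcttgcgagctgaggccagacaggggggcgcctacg
EBP: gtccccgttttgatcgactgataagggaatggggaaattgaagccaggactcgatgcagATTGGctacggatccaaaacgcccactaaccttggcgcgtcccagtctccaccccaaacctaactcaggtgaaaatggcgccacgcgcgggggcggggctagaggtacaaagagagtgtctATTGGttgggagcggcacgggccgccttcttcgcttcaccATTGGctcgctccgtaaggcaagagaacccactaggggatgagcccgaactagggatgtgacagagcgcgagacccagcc

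Of the 9 members, 7 had windows that were read, with 2 windows for DHCR7. Those of FDFT1 and SQLE were not read. CCAAT was found 4 times in the MSMO1 window, 5 times in that of NSDHL, where 2 of the matches overlap, 3 times in that of EBP and not at all in that of CYP51A1. At least 1 match is held by 34.6% of the 35116 windows in the table, at least 3 by 3.26%, at least 4 by 0.991% and at least 5 by 0.359%. LSS had 1 CCAAT, and HSD17B7 and 1 of the DHCR7 windows had 2 each. The GC box GGGCGG, a site bound by SP family factors, was found 7 times in LSS, 4 times in the same DHCR7 window, 2 times in MSMO1 and 1 time each in CYP51A1, HSD17B7 and EBP, and 45% of all windows hold at least 1. The sterol element spelled TCACNCCAC was found in none of these windows (1.13% of all windows hold it). The loose form TCACNNCA was found in MSMO1 at -156 to -149 from the start (12.7% of all windows). Among the 7 members read, the most CCAAT boxes thus stood in NSDHL and MSMO1, a gene with a small and a gene with a large difference at 4 h. SQLE, with the largest difference, is not covered.

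The compounds were also set directly against each other at matched times, 2 comparisons in all with no test, and with unknown doses. At 4 h all 9 enzymes were lower in dTRIM24 cells than in IACS-9571 cells, by -0.16 (NSDHL) to -0.39 (DHCR7), with a median of -0.25 against -0.02 for all genes. None of the 9 was past 2-fold lower, as 0.0362% of all genes were. DHCR7 stood 47 places and SQLE (-0.36) 55 places from the lowest of 11051 genes, and 4 of the 9 lay below the central 95% of all genes, which ended at -0.26. All 9 remained lower under median centring, quantile normalization, spike-in rescaling and removal of the GC trend, with medians between -0.27 and -0.17. Median centring and spike-in rescaling shifted these values by too little to change a sign. The spike-ins had an SD of 0.22 in this comparison, and NSDHL, EBP (-0.19) and MSMO1 (-0.20) differed by less than that. At 24 h the 9 were higher in dTRIM24 cells, by 0.08 (SQLE) to 0.58 (LSS), but so were 98.4% of all genes: the median was 0.25 for the 9 and 0.28 for all genes. None was past 2-fold higher, as 0.199% of all genes were. Relative to the median of all genes 4 stood higher and 5 lower, and MSMO1 (-0.19) and SQLE (-0.20) were the lowest. Since no replicate spread is known, these values do not show that the compounds act alike or differently on any member.

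**Figure D3:**
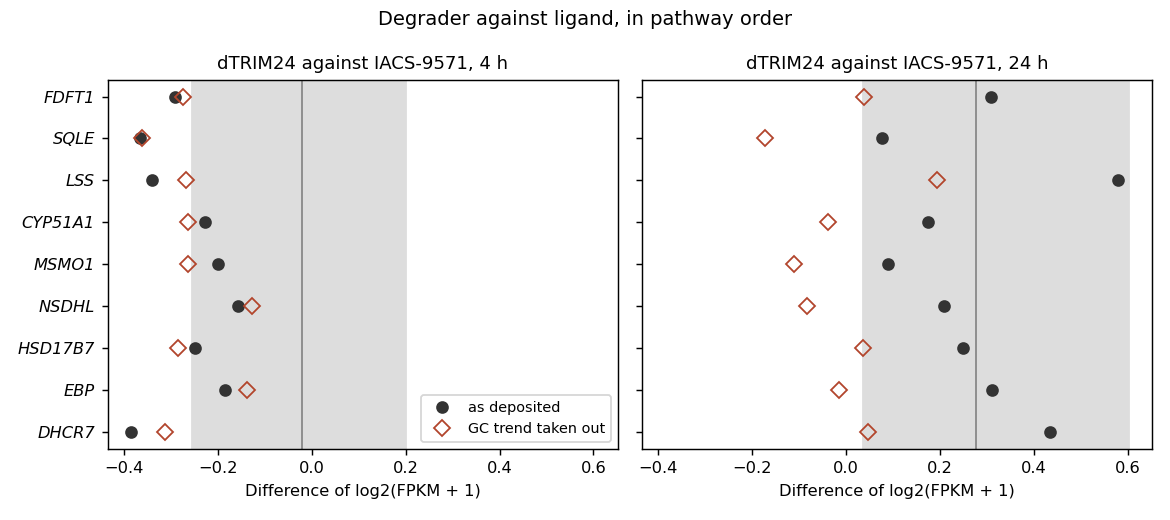
Filled points give the difference of log2(FPKM + 1) of dTRIM24 against IACS-9571 as deposited, at 4 h on the left and 24 h on the right; open diamonds give it after removal of the trend that all genes show with GC content, which also sets the level of all genes to about 0. The grey band and line are the central 95% and the median of 11051 genes as deposited; all 9 points lie left of 0 at 4 h, between -0.39 and -0.16, and right of 0 at 24 h, where the diamonds fall on both sides of 0.

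By 24 h with IACS-9571 the enzymes were near their DMSO level. The summed level was 239.6 FPKM in IACS-9571 cells against 232 FPKM in DMSO cells, and the median difference was 0.01, with 5 of 9 above 0 (7 with median centring) and none past 2-fold higher (0.0181% of all genes were). SQLE had the largest difference, 0.29, above the central 95% of all genes, which ended at 0.23, and at rank 116 of 11051. The highest spike-in in this comparison stood at 0.39. LSS had 9.17 FPKM in IACS-9571 cells against 7.99 FPKM in DMSO cells, and DHCR7 17.3 FPKM in IACS-9571 cells against 15.6 FPKM in DMSO cells. The other 6 differed from DMSO by -0.07 (HSD17B7) to 0.04 (EBP). MSMO1, for example, had 16.1 FPKM in IACS-9571 cells against 16.4 FPKM in DMSO cells. Taking the difference from DMSO at 4 h off that at 24 h left a negative value for all 9 members, from -0.50 for EBP to -1.73 for MSMO1, with a median of -1.13 against -0.02 for all genes.

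At 24 h with dTRIM24 the summed level was 289.6 FPKM against 232 FPKM in DMSO cells. All 9 were above DMSO, by a median of 0.30, but 96.8% of all genes were too, by a median of 0.26. None was past 2-fold higher (0.136% of all genes), and 1 was past 1.5-fold (4.74% of all genes). That gene was LSS, with 14.2 FPKM in dTRIM24 cells against 7.99 FPKM in DMSO cells, a difference of 0.76 and rank 84 of 11051. DHCR7 had 23.7 FPKM in dTRIM24 cells against 15.6 FPKM in DMSO cells, a difference of 0.57. Its plain FPKM ratio was 1.52, and it fell short of 1.5-fold only with the added 1 FPKM. EBP had 39.9 FPKM in dTRIM24 cells against 31.1 FPKM in DMSO cells, a difference of 0.35. CYP51A1 had 35.95 FPKM in dTRIM24 cells against 31.5 FPKM in DMSO cells, and NSDHL 21.5 FPKM in dTRIM24 cells against 18.8 FPKM in DMSO cells. HSD17B7 had 14.9 FPKM in dTRIM24 cells against 13.0 FPKM in DMSO cells, and MSMO1 17.2 FPKM in dTRIM24 cells against 16.4 FPKM in DMSO cells. These last 4 differed from DMSO by less than the median gene did. With median centring 5 of the 9 stood above DMSO and 4 below.

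At its ends, the order of the members in that comparison matched the GC content of their transcripts. LSS and DHCR7 have the highest, 58.3% each, and MSMO1 the lowest, 38.1%, with a difference of 0.07. Between them the orders parted: SQLE, at 46.5%, differed by 0.37, more than EBP (53.5%, 0.35), FDFT1 (48.6%, 0.30) and NSDHL (50.5%, 0.19). Over all genes the differences ran with GC content too (Spearman rho 0.61 over 10240 genes, which are no replicates). The median difference was 0.48 among the genes of the highest of 10 GC bins and 0.13 among those of the lowest. The part of GC content in the members' order was not tested beyond taking out the trend. With that trend taken out LSS stood at 0.37, DHCR7 at 0.19 and SQLE at 0.14, and the other 6 between -0.09 and 0.04. At 4 h the rho was -0.72 with dTRIM24 and -0.38 with IACS-9571. There taking the trend out left the medians of the 9 at 0.81 and 1.09. As before 4 and 6 members were past 2-fold higher (69 and 24 of the 10240 genes).

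**Figure D4:**
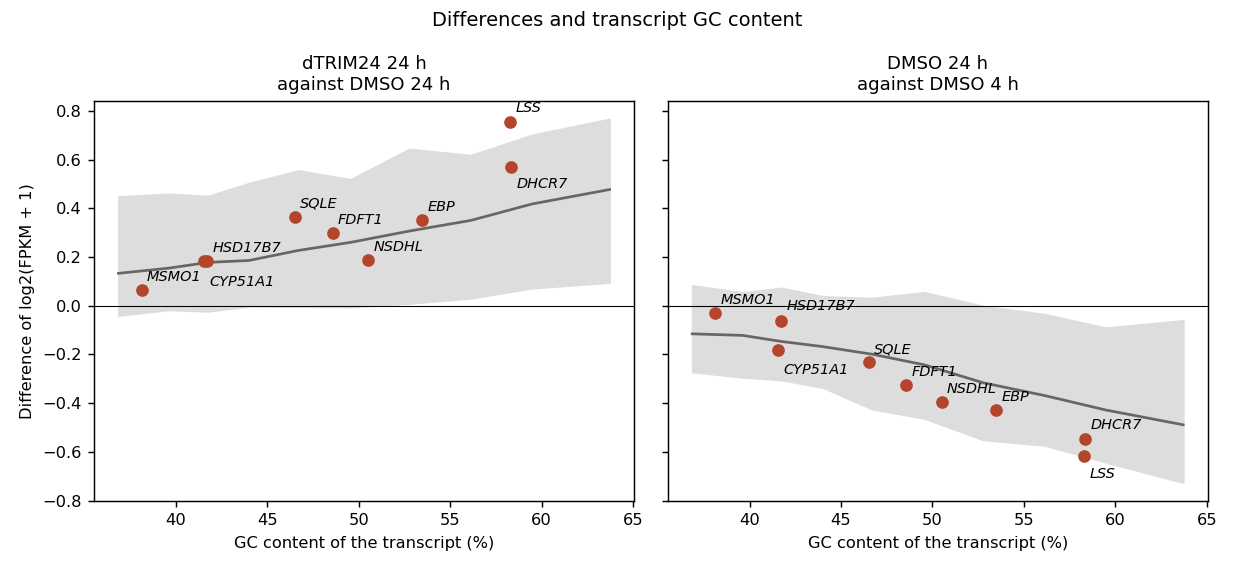
Red points place the 9 enzymes by the GC content of their longest transcript (percent) and their difference of log2(FPKM + 1), dTRIM24 against DMSO at 24 h on the left and DMSO at 24 h against DMSO at 4 h on the right. The grey line and band are the median and the central 95% in 10 GC bins of all genes; LSS (0.76 and -0.62) lies farthest from 0 in both panels and MSMO1 (0.07 and -0.03) nearest.

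In DMSO cells alone the 9 enzymes were lower at 24 h than at 4 h, as most genes were: 5.03% of all genes stood higher at 24 h. The summed level was 232 FPKM at 24 h against 291 FPKM at 4 h, and the differences ran from -0.03 (MSMO1) to -0.62 (LSS). None was past 2-fold lower (0.0543% of all genes), and LSS alone was past 1.5-fold lower (3.64% of all genes). The median of the 9 was -0.32 against -0.22 for all genes, and -0.10 once the trend on GC content was removed. With median centring 3 of the 9, MSMO1, HSD17B7 and CYP51A1, stood higher at 24 h and 6 lower. This comparison and that of dTRIM24 with DMSO at 24 h share the DMSO means at 24 h, with opposite sign.

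In cells given either compound the enzymes were lower at 24 h than at 4 h. With dTRIM24 the summed level was 289.6 FPKM at 24 h against 561 FPKM at 4 h, and with IACS-9571 it was 239.6 FPKM at 24 h against 680 FPKM at 4 h. All 9 were lower at 24 h with both compounds, also under median centring, quantile normalization, spike-in rescaling and removal of the GC trend. Median centring and spike-in rescaling shifted these values by too little to change a sign. These comparisons reuse the treated means that were set against DMSO above, so they are not independent of those differences. Of all genes 61.4% stood higher at 24 h with dTRIM24 and 3.03% with IACS-9571, so with IACS-9571 the lower direction was that of most genes. With dTRIM24 3 of the 9 were past 2-fold lower (0.624% of all genes), SQLE by -1.41, MSMO1 by -1.47 and CYP51A1 by -1.24, with a median of -0.84 against 0.05 for all genes. DHCR7, at -0.98, lay just within the bound and crossed it with median centring, which gave 4 (71 of all 11051 genes). The plain FPKM ratio of DHCR7 at 4 h to 24 h was 2.02. With IACS-9571 7 of the 9 were past 2-fold lower (0.434% of all genes), with a median of -1.44 against -0.26 for all genes. NSDHL, at -0.999, and EBP, at -0.93, were the 2 within that bound. With a pseudocount of 0.1 NSDHL crossed it, so that 8 were past 2-fold lower (93 of all 11051 genes). With median centring HSD17B7 dropped out and 6 were (31 of all 11051 genes). LSS and EBP were the least different with dTRIM24, at -0.44 and -0.43, and at 24 h both were above the DMSO mean of that time, as most genes were. Taking the difference from DMSO at 4 h off that at 24 h gave 0.17 for LSS and -0.01 for EBP with dTRIM24, against -1.44 for MSMO1 and a median of -0.51 for the 9 and 0.26 for all genes.

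Of 5 other kept genes that take part in the late steps, none was past 2-fold at 4 h with either compound. Past 2-fold higher were 0.67% of all genes with dTRIM24 and 0.253% with IACS-9571. All 5 were above DMSO, as 47.8% and 50.1% of all genes were, by a median of 0.51 with dTRIM24 and 0.83 with IACS-9571. SC5DL, the desaturase before DHCR7, had 12.5 FPKM in dTRIM24 cells and 13.3 FPKM in IACS-9571 cells, against 6.20 FPKM in DMSO cells. In plain FPKM both were more than 2-fold higher. With the 1 FPKM added before the log2 the differences of SC5DL were 0.91 and 0.99, just short of the bound. C14orf1, a membrane protein known to tether the demethylating enzymes in yeast, differed by 0.51 and 0.83. TM7SF2 and LBR can both carry out the reduction that follows CYP51A1: TM7SF2 had 3.71 FPKM in dTRIM24 cells and 5.06 FPKM in IACS-9571 cells, against 2.65 FPKM in DMSO cells. LBR, which is also a lamin receptor of the nuclear envelope and was named after its values were seen, had 125 FPKM in dTRIM24 cells and 123 FPKM in IACS-9571 cells, against 112 FPKM in DMSO cells. Its differences of 0.15 and 0.13 lay within the central 95% of all genes, where none of the 9 members lay.

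Upstream, 4 of 8 mevalonate pathway genes were past 2-fold higher at 4 h with dTRIM24 (0.67% of all genes). With IACS-9571 5 of 8 were (0.253% of all genes). Their medians were 0.83 with dTRIM24 and 1.23 with IACS-9571. Their largest difference was that of HMGCS1, the synthase that makes HMG-CoA, at 1.92 with dTRIM24 and 2.32 with IACS-9571, above SQLE. MVK, the mevalonate kinase, differed by 1.05 and 1.47. IDI1, the isomerase of the isoprene unit, differed by 1.19 and 1.38. Not all 8 differed so much: with dTRIM24 7 stood above DMSO and 1 below, and with IACS-9571 the lowest stood at 0.00. Of 13 kept genes of SREBP control and lipoprotein uptake 2 were past 2-fold higher with dTRIM24 (0.67% of all genes). With IACS-9571 3 of the 13 were (0.253% of all genes). INSIG1 (1.67 and 1.88) and STARD4 (1.16 and 1.13) were among them with both compounds. The medians of these 13 were 0.14 with dTRIM24 and 0.28 with IACS-9571, and with each compound 9 stood above DMSO and 4 below. INSIG1 holds SREBP back in the endoplasmic reticulum, and STARD4 carries sterols between membranes. None of 8 genes on other routes that start from farnesyl diphosphate was past 2-fold, like nearly all genes by the shares above. Their medians were 0.03 with dTRIM24 and 0.01 with IACS-9571, against -0.01 and 0.00 for all genes. FNTA, a subunit of the protein farnesyltransferase, had 93.5 FPKM in dTRIM24 cells and 90.1 FPKM in IACS-9571 cells, against 85.8 FPKM in DMSO cells. GGPS1, which makes geranylgeranyl diphosphate, differed by 0.02 and 0.06, while DHDDS and NUS1, which together make dolichol precursors, differed by -0.06 and 0.13 with dTRIM24 and by -0.07 and -0.05 with IACS-9571.

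Of 7 genes that esterify, oxidise or export cholesterol, 1 was kept, so nothing is said of that list as a group. That gene, SOAT1, which esterifies cholesterol, had 16.1 FPKM in dTRIM24 cells and 15.6 FPKM in IACS-9571 cells, against 15.2 FPKM in DMSO cells at 4 h. The others, among them the efflux pumps ABCA1 and ABCG1, did not reach 1 FPKM. None of 5 kept ubiquitin ligases and partners that act on SQLE or other enzymes of sterol synthesis was past 2-fold. Of all genes 0.67% were past 2-fold higher with dTRIM24 and 0.253% with IACS-9571. The medians of the 5 were -0.03 with dTRIM24 and 0.00 with IACS-9571. SYVN1, one of these ligases, had 9.86 FPKM in dTRIM24 cells and 11.04 FPKM in IACS-9571 cells, against 10.7 FPKM in DMSO cells.

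The 6 means of each gene, centred on the gene's own mean on the log2 scale, form a profile, and genes were ranked by the root mean square distance of their profile from the median profile of the 9. FDFT1 lay nearest to that median among the members (0.02) and SQLE farthest (0.30). Among 8342 other genes with at least 5 FPKM in a group, whose median distance was 0.50, the 8 nearest included ACAT2 (0.11), IDI1 (0.12), SCD (0.12), SC5DL (0.12), STARD4 (0.14) and PPARD (0.15). ACAT2 and IDI1 belong to the mevalonate pathway, SC5DL to the late sterol steps, and STARD4 to the SREBP list above. SCD, which makes monounsaturated fatty acids, had 590 FPKM in dTRIM24 cells and 696 FPKM in IACS-9571 cells at 4 h, against 276 FPKM in DMSO cells. PPARD, a nuclear receptor for fatty acids, had 9.28 FPKM in dTRIM24 cells and 11.9 FPKM in IACS-9571 cells, against 5.91 FPKM in DMSO cells. The distance is over 6 means only, and says nothing of how these genes are controlled.

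**Figure D5:**
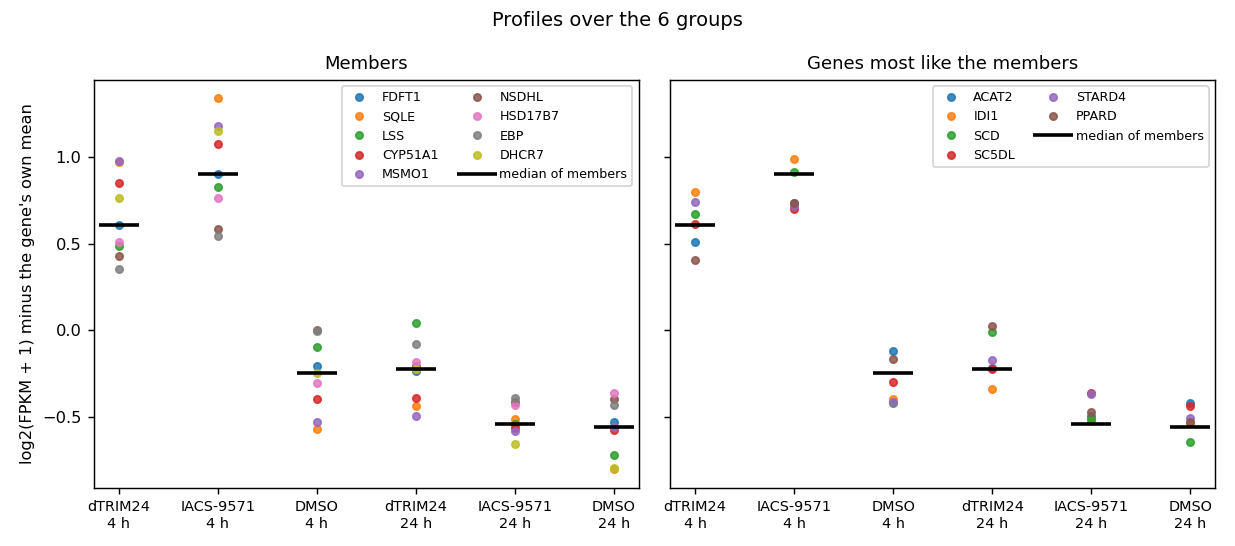
Points give log2(FPKM + 1) minus the gene's own mean over the 6 groups, for the 9 enzymes on the left and for 6 of the 8 genes nearest to them on the right; black bars mark the median of the 9. The medians are 0.61 in dTRIM24 and 0.90 in IACS-9571 cells against -0.25 in DMSO cells at 4 h, and -0.22 and -0.54 against -0.56 at 24 h.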

How the data were processed

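The labels describe RNA from 18 samples, 3 in each of 6 groups, with ERCC spike-ins added after normalization by cell count. Per the submitters' processing notes the authors used TopHat2, Cuffnorm and hg19, and the deposited table gives their FPKM as 1 mean per group. Not given in the sources used here were tool versions, gene annotation and strand settings. No counts are held, so depth and its precision are unknown. The labels do not say whether the samples within a group were grown as separate cultures.

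Spike-ins (92 rows) and small RNAs by name were left out, and 11051 genes with a highest group mean of at least 1 FPKM were kept. Differences used log2(FPKM + 1); limma, foreseen only for values per library, did not apply. Named genes were the 9 members, up to 4 per list by size with IACS-9571 at 4 h, and the 8 nearest profiles; LBR, ABCA1 and ABCG1 were named after their values were seen. Some genes of the lists and profiles are not reported here. The members, lists and motifs were chosen with earlier results of these data known. GC content came from the longest GENCODE transcript of each symbol, older symbols included (92.7% of kept genes), and a cubic trend with its intercept was taken out. The steps were tested on simulated data. Alternatives were 2 other pseudocounts (0.1 and 0.5), no filter, a higher filter (5 FPKM), quantile normalization, median centring, spike-in rescaling, a 1.5-fold threshold and the GC trend. Figures used matplotlib 3.10.9, and values came from pandas 2.3.3, numpy 2.4.6 and scipy 1.17.1 under Python 3.11.15.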

Additional observations from a re-analysis of the deposited data

How the results depend on the processing

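Of 729 member values recomputed none that was past 2-fold changed sign, and 103 moved by at least the SD of the spike-ins in their comparison. Those 729 include the no-filter, higher-filter and 1.5-fold settings, which leave every member value as it was. The 2 other pseudocounts could not change a sign. At 4 h no median moved by that SD and no count by over 1.5 times. The members past the threshold with dTRIM24 and with IACS-9571 against DMSO were 4 and 6 at 2-fold (74 and 28 of all 11051 genes). They were 6 and 7 at 1.5-fold (102 and 62 genes), and 3 and 5 at 2-fold after rescaling to the spike-ins (73 and 26 genes). In plain FPKM LSS with dTRIM24 (ratio 1.54) and NSDHL with IACS-9571 (ratio 1.52) were past 1.5-fold too. They fell just short of it on log2(FPKM + 1). For dTRIM24 against DMSO at 24 h the median of the 9 was 0.043 with median centring, 0.059 with quantile normalization and 0.034 with the GC trend taken out, against 0.30 as deposited. For dTRIM24 against IACS-9571 at 24 h these were -0.026, -0.061 and -0.016, against 0.25. For DMSO at 24 h against 4 h they were -0.11, -0.052 and -0.10, against -0.32. For IACS-9571 at 24 h against 4 h they were -1.18, -1.08 and -1.18, against -1.44. Each of these 3 settings takes out the shift common to all genes. Rescaling to the spike-ins moved medians the other way by less than the spike-ins' SD, to 0.36 for dTRIM24 against DMSO at 24 h, 0.30 for dTRIM24 against IACS-9571 at 24 h and -0.39 for DMSO at 24 h against 4 h; for IACS-9571 at 24 h against 4 h it gave -1.39. With a 1.5-fold threshold 1 member was higher with dTRIM24 against DMSO at 24 h (524 of all 11051 genes). In DMSO at 24 h against 4 h 1 was lower (402 of all genes). At 2-fold these were 0 each. With dTRIM24 at 24 h against 4 h 7 were lower at 1.5-fold (98 of all genes) and 3 at 2-fold (69 of all genes). The counts of lower members were chosen after seeing the data. No paired analysis was possible because the table holds group means only, and for the same reason no replicate could be left out. The unknown depth and the missing replicate spread limit all of these values.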
